A study of Mus musculus with 5 samples.

Results

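MHC class I antigen presentation was followed through 10 genes in PDGFRa-positive mammary fibroblasts: the light chain gene B2m, the heavy chain genes H2-K1 and H2-D1, the peptide transporter genes Tap1 and Tap2, the loading gene Tapbp, the immunoproteasome genes Psmb8, Psmb9 and Psmb10, and the regulator gene Nlrc5. They were taken by symbol, and all 10 were found among the 45706 rows of the deposited table. RNA sequencing covered 5 libraries of Balb/c mice, 2 from females that had never been pregnant (nulliparous) and 3 from females at day 6 after weaning (involution). Cells came from mammary glands 4 and 5, were sorted for PDGFRa, a surface receptor of fibroblasts, and were frozen before RNA extraction. The sorted receptor gene Pdgfra was abundant in every library, at log2 values of 15.87 and 15.93 in nulliparous and 15.69 to 16.09 in involution libraries. The series calls the libraries of a group biological replicates, and neither the age of the mice nor the number of animals in a library is stated. The involution group had also passed through pregnancy and lactation, so effects of these stages and of weaning cannot be told apart. In sorted bulk cells, a change in the mix of cells and a change of RNA per cell cannot be told apart either.

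Class I molecules show peptides from inside the cell to CD8 T cells and serve as ligands of receptors on NK cells. Proteasomes cut proteins into peptides, and the immunoproteasome swaps the catalytic subunits for Psmb8, Psmb9 and Psmb10. The TAP transporter carries peptides into the endoplasmic reticulum, where tapasin, the product of Tapbp, helps to load them on a heavy chain paired with beta-2-microglobulin. Interferons raise most of these genes, and NLRC5 is the transactivator of class I genes, as CIITA is for class II. Nearly all nucleated cells carry class I, fibroblasts included.

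The promoters of B2m, H2-K1 and H2-D1, the members with the largest differences, are shown to compare the elements of the light and heavy chain genes, and that of Tap1 because it faces Psmb9. Sequences are those of RefSeq on GRCm38.p6, from 250 bases before to 50 bases after the start site, 5′ to 3′, and 8 of the 10 members had an entry. B2m lies at chr2:122147437-122147736 on the plus strand, H2-K1 at chr17:34000298-34000597 on the minus strand, and H2-D1 at chr17:35262844-35263143 on the plus strand. Tap1 lies at chr17:34187306-34187605 on the plus strand, and its window shares 275 bases with that of Psmb9 on the opposite strand. Capitals mark matches, on either strand, to the interferon-stimulated response element (GAAA, any 2 bases, GAAA), its shorter form (GAA, any 2 bases, GAAA), the kappa B element (GGG, any 2 bases, TTCCC), the X2 core TGACGC and the inverted CCAAT box ATTGG. No marked match overlaps another in these windows, and H2-K1 has a further entry that starts 14 bases away.
B2m: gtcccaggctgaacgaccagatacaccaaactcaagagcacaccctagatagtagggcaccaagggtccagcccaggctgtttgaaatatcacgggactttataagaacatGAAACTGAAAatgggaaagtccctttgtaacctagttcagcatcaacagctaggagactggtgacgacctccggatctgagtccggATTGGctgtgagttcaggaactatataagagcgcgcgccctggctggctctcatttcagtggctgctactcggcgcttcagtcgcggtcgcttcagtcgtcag
H2-K1: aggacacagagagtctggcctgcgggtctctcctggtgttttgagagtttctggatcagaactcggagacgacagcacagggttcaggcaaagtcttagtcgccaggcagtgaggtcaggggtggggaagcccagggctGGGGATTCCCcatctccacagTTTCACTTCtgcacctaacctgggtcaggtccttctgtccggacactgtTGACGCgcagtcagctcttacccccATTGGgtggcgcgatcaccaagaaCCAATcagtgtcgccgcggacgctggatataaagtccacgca
H2-D1: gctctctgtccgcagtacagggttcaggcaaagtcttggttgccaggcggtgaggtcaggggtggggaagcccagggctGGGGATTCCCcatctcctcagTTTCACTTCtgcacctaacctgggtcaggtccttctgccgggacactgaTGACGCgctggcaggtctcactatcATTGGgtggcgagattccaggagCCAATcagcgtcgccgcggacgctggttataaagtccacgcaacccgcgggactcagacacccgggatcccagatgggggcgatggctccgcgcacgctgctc
Tap1: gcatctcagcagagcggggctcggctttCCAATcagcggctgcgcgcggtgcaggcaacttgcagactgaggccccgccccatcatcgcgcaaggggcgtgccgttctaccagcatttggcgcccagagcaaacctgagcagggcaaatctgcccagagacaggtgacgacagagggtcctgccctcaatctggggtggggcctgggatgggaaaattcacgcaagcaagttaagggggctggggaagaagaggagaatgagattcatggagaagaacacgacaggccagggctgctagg

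The heavy chain promoters shared their order of elements. In H2-K1 the kappa B match was followed after 11 bases by the short interferon element, after 40 bases by the X2 core and after 19 bases by an inverted CCAAT box. The spacings in H2-D1 were again 11, 40 and 19 bases. A further CCAAT match, on the other strand, followed after 19 bases in H2-K1 and 18 in H2-D1. B2m held 1 full interferon element, which began 139 bases before the start site, and an inverted CCAAT box. The Tap1 window held a CCAAT match only, and the RefSeq start sites of Tap1 and Psmb9 lay 226 bases apart, facing away from each other. In GENCODE M21, used for gene positions, these genes overlap at that end and share 212 exon bases. Among 32851 promoter windows of the same length, 3.4% held the full interferon element, 7.5% its short form, 1.8% the kappa B element, 7.4% the X2 core and 37.4% a CCAAT box. These matches describe letters of the C57BL/6J reference and not binding. Balb/c mice carry another MHC haplotype, with an extra heavy chain gene, L, that the reference lacks, and how its reads were assigned was not tested.

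RNA of the class I molecule itself was at a higher level in the libraries of involuting glands. Of the 10 members, B2m, H2-D1, H2-K1, Tapbp, Nlrc5 and Tap1 passed as higher in limma's moderated test at an adjusted p of 0.05 (Benjamini-Hochberg, over 15912 genes), and 0 passed as lower. Among all tested genes 6.65% were called higher and 4.66% lower. In 9 members every involution library stood above every nulliparous library, against 21.9% of all tested genes, and in 0 every one stood below, against 25.1%. The exception was Tap2. The members had a median log2 difference of 0.73, and all tested genes one of -0.03. Values are the deposited log2 values of scaled counts, whose scaling is not given. The offset is the unlogged value of rows at the floor of the table. A unit is the unlogged value above that offset and need not be a scaled count. With a lower filter, which left out only rows at the floor of the table, B2m and Tapbp were called among 28311 genes, of which 1.14% were called higher. The adjusted p in limma was then 0.0566 for Nlrc5, 0.0747 for H2-K1, 0.0792 for H2-D1 and 0.105 for Tap1. B2m and Tapbp passed in each of 14 settings.

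**Figure D1:**
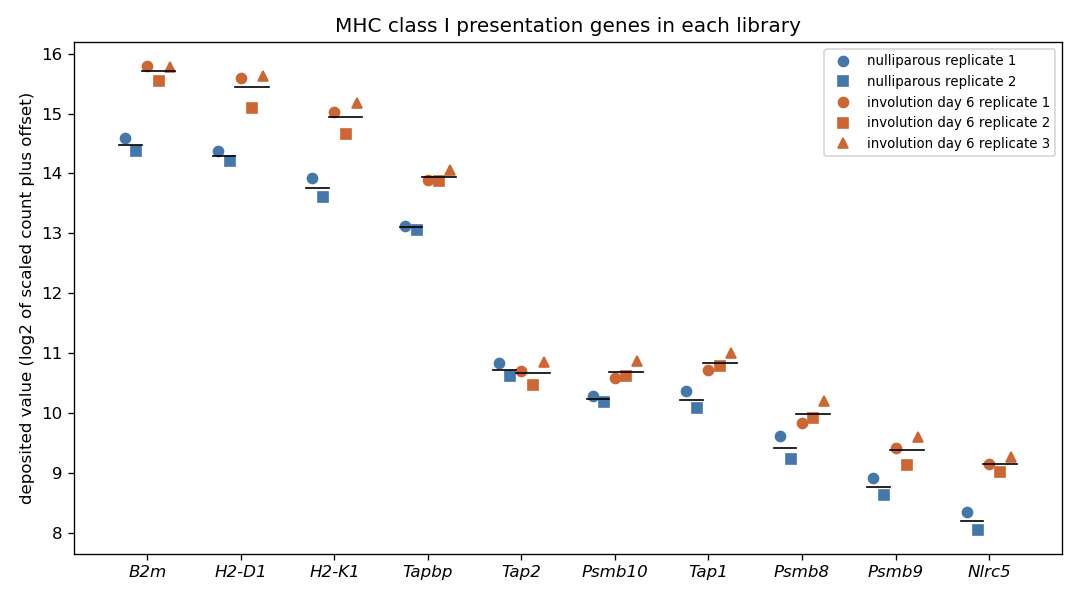
Deposited log2 value of each of the 10 members (x axis) in the 5 libraries, blue for nulliparous and orange for involution day 6, with black lines at the group means. The 3 orange points stand above both blue points in each gene except Tap2.

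B2m, the light chain gene on chromosome 2 from 122147686 to 122153083, had log2 values of 14.59 and 14.38 in the nulliparous libraries. In involution replicates 1, 2 and 3 it had 15.80, 15.55 and 15.78. The groups were apart by 0.97 at their nearest values, and the difference of 1.23 ± 0.14 (log2, SE, n = 2 and 3) is a 2.35-fold rise with adjusted p = 0.00564 in limma.

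H2-K1, the heavy chain gene at the start of the MHC on chromosome 17 (33996017 to 34000347), was at log2 values of 13.92 and 13.60 in the nulliparous libraries and 15.03, 14.66 and 15.17 in those of involution. It rose 2.29-fold (log2 difference 1.19 ± 0.18, adjusted p = 0.0132 in limma). H2-D1, the second heavy chain gene, lies on the same chromosome from 35262730 to 35267499. Its log2 values were 14.37 and 14.21 in the nulliparous libraries and 15.59, 15.10 and 15.62 in those of involution. It rose 2.22-fold (1.15 ± 0.19, adjusted p = 0.0153 in limma). Involution replicate 2 was the lowest of its group for B2m, H2-K1 and H2-D1, and still stood above both nulliparous libraries. The balance of light to heavy chain RNA, chosen after its values were seen, did not separate the groups. As a log2 ratio of B2m to H2-K1 plus H2-D1 it was -0.58 and -0.56 in the nulliparous libraries and -0.54, -0.35 and -0.63 in those of involution (two-sided exact permutation p = 0.8).

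Both heavy chain calls were lost without either nulliparous library. Without nulliparous replicate 1 the adjusted p in limma was 0.0507 for H2-K1 and 0.0727 for H2-D1. Without nulliparous replicate 2 it was 0.0763 and 0.0881. Their log2 differences stayed between 0.89 and 1.36 over the 14 settings. Class I genes are near copies of each other, so these levels are uncertain. Of the 50-base words of the longest coding transcript, 8.8% of H2-K1 and 14.3% of H2-D1 occur in transcripts of other genes, against 0.0% for B2m.

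Of the loading genes, Tapbp and Tap1 rose and Tap2 did not pass. Tapbp, on chromosome 17 from 33915899 to 33929292, was at log2 values of 13.13 and 13.06 in the nulliparous libraries and 13.89, 13.87 and 14.05 in those of involution. Its libraries agreed most closely within groups, with SDs of 0.05 (n = 2) and 0.10 (n = 3), and it rose 1.79-fold (0.84 ± 0.09, adjusted p = 0.00575 in limma). Antisense and neighbouring genes share 29.0% of its exon bases, and the library kit does not mark strand.

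Tap1 and Tap2 encode the paired chains of the transporter and lie in the same cluster, on chromosome 17 from 34187553 to 34197225 and from 34203527 to 34216321. Tap1 was at log2 values of 10.36 and 10.08 in the nulliparous libraries and 10.71, 10.78 and 11 in those of involution, a 1.52-fold rise (0.61 ± 0.13, adjusted p = 0.0359 in limma). Tap2 was at 10.84 and 10.61 in the nulliparous libraries and 10.70, 10.46 and 10.85 in those of involution, and the groups overlapped (log2 difference -0.05 ± 0.14, adjusted p = 0.835 in limma). The call of Tap1 was lost without any 1 of the 5 libraries, at adjusted p in limma from 0.0566 without involution replicate 1 to 0.156 without nulliparous replicate 2, the values without the other three lying between. It was also lost when libraries were scaled to equal totals (adjusted p = 0.0819 in limma). The log2 ratio of Tap1 to Tap2, chosen after its values were seen, was -0.48 and -0.53 in the nulliparous libraries and 0.00, 0.32 and 0.16 in those of involution. The groups did not overlap, and the two-sided exact permutation p of 0.2 is the smallest that 2 against 3 libraries allow. Tap1 shares 3.87% of its exon bases with Psmb9, and Tap2 shares 18.5% with antisense genes.

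The immunoproteasome genes were each higher in every involution library, and 0 of the 3 passed in limma. Each had an unadjusted p under 0.05, as did 4604 of the 15912 tested genes. Psmb8, on chromosome 17 from 34197721 to 34201454, was at log2 values of 9.61 and 9.23 in the nulliparous libraries and 9.84, 9.92 and 10.20 in those of involution (difference 0.57 ± 0.16, adjusted p = 0.0782 in limma). Psmb9, which shares its promoter region with Tap1 and lies from 34181987 to 34187764, was at 8.91 and 8.63 against 9.42, 9.13 and 9.60 (0.61 ± 0.17, adjusted p = 0.0739 in limma). Psmb10, on chromosome 8 from 105935735 to 105938444, was at 10.29 and 10.18 against 10.59, 10.61 and 10.86 (0.45 ± 0.11, adjusted p = 0.0522 in limma). Psmb10 passed with a stricter filter of 100 units above the offset (adjusted p = 0.048 in limma) and with libraries set to equal medians (0.0408). Without nulliparous replicate 2 the difference of Psmb8 was 0.38, against 0.57 with all libraries, and 14.7% of its exon bases are shared with an antisense gene.

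Each immunoproteasome subunit takes the place of a constitutive one, Psmb5, Psmb6 and Psmb7 in this order. The log2 ratio of Psmb8 to Psmb5, with the offset removed, was 0.68 and 0.58 in the nulliparous libraries and 1.30, 1.39 and 1.25 in those of involution. For Psmb9 and Psmb6 it was -2.11 and -2.08 against -1.28, -1.50 and -1.16. For Psmb10 and Psmb7 it was -0.60 and -0.41 against -0.18, -0.11 and 0.07. The 3 ratios were higher in every involution library, by 0.69, 0.78 and 0.43, each with a two-sided exact permutation p of 0.2, the smallest possible here. The ratios were taken within a library, so scaling between libraries leaves them as they are. The constitutive partners themselves did not pass, with log2 differences of -0.11 ± 0.18 for Psmb5, -0.15 ± 0.11 for Psmb6 and 0.02 ± 0.11 for Psmb7. Psmb5 shares 57.1% of its 50-base words with other genes, mostly a processed copy, so its level is uncertain.

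**Figure D2:**
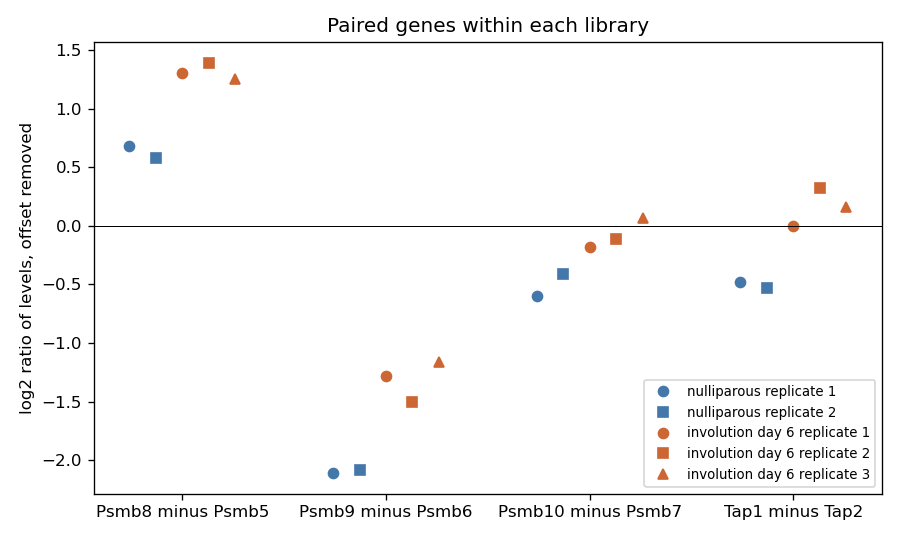
Log2 ratio of the levels of paired genes (y axis, offset removed) in each library, blue for nulliparous and orange for involution day 6. In each of the 4 pairs the 3 orange points stand above both blue points, for example at 1.25 to 1.39 against 0.58 and 0.68 for Psmb8 and Psmb5.

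Nlrc5, the class I transactivator gene on chromosome 8 from 94434356 to 94527272, was the least abundant member. Its log2 values were 8.34 and 8.04 in the nulliparous libraries and 9.14, 9.01 and 9.26 in those of involution. It rose 1.93-fold (0.95 ± 0.15, adjusted p = 0.014 in limma). Without nulliparous replicate 2 it did not pass (adjusted p = 0.0701 in limma).

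Per kilobase of annotated exon, the members spanned a wide range of levels. B2m stood first with a mean of 26700 units above the offset per kilobase in nulliparous and 62600 in involution libraries. H2-D1 followed with 7770 and 17500, H2-K1 with 4750 and 10900, and Tapbp with 2410 and 4320. Psmb10 had 701 and 962, Tap2 446 and 431, Tap1 217 and 331, Psmb8 201 and 299, and Psmb9 116 and 180. Nlrc5 was last with 33.1 and 65.1. H2-D1 was above H2-K1 within each library, at 8200 and 7330 against 5270 and 4220 in nulliparous libraries and at 13600 to 19600 against 8820 to 12600 in involution libraries. Whether reads of the Balb/c gene L, absent from the reference, added to either level was not tested. Levels of Tap1 and Psmb8 were close, at 238 and 196 against 228 and 174 in nulliparous libraries and 303 to 373 against 267 to 346 in involution libraries. With the longest coding transcript as length, chosen after seeing the data, B2m, H2-D1, H2-K1, Tapbp and Psmb10 kept the first places and Nlrc5 the last, while the order of Tap1, Tap2, Psmb8 and Psmb9 changed.

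Many other class I genes were higher as well. Of 26 heavy chain genes outside the classical pair, MHC class Ib genes and class I-like molecules, 22 were in the table and 19 were tested. Among these, 7 rose and 0 fell, and 14 had every involution library above every nulliparous library. Their median log2 difference was 0.83, and 18 were positive, also under each of 3 other scalings. With the lower filter 3 rose. Without nulliparous replicate 1 just 1 rose, and without the other libraries 5 to 7 did.

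H2-T23, which encodes Qa-1, a ligand of NK receptors, rose by 1.02 ± 0.12 (log2, adjusted p = 0.006 in limma). Its log2 values were 12.16 and 12.07 in the nulliparous libraries and 13.10, 12.98 and 13.33 in those of involution. Cd1d1, the lipid-presenting molecule gene for NKT cells, rose by 0.91 ± 0.12, H2-T22, which encodes a ligand of gamma delta T cells, by 0.87 ± 0.12 and Hfe, the iron-regulating class I-like gene, by 0.73 ± 0.10. The others, chosen after their values were seen, were H2-Q10, which encodes a secreted chain, H2-Q4 and H2-Q1, with differences of 1.92, 1.40 and 1.07. H2-Q7 had the largest difference without passing (1.19 ± 0.29, adjusted p = 0.0504 in limma). Shared 50-base words made up 44.7% of H2-T22, 28.8% of H2-T23 and 34.9% of H2-Q7, so single members of these families are uncertain. Fcgrt, the class I-like antibody receptor gene, and Mr1, which presents vitamin metabolites, had differences of 0.23 ± 0.09 and 0.19 ± 0.13 and did not pass.

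**Figure D3:**
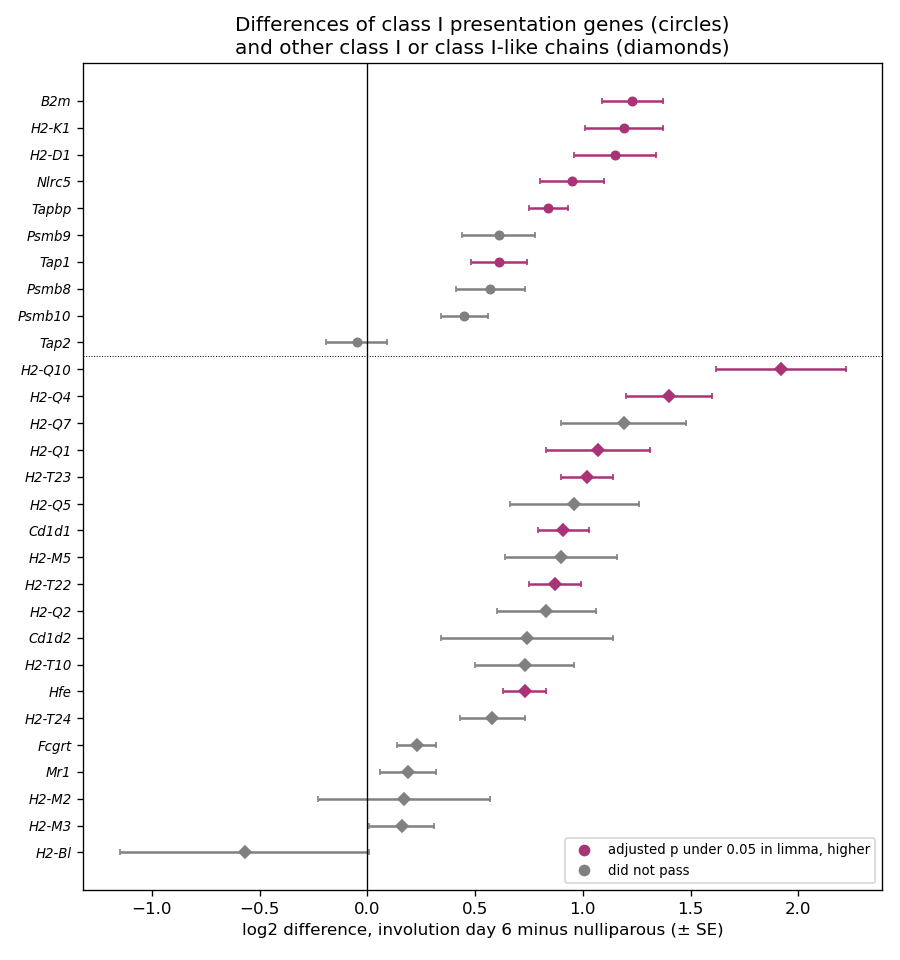
Log2 difference, involution day 6 minus nulliparous, with its SE for the 10 members (circles, top) and 19 other class I or class I-like chains (diamonds, bottom), purple where limma's adjusted p was under 0.05. All but Tap2 and H2-Bl stand right of 0, with H2-Q10 farthest at 1.92.

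Among 8 ligands of NKG2D, an activating receptor of NK cells, 1 was tested. This was Ulbp1, at log2 values of 6.23 and 6.11 in the nulliparous libraries and 7.29, 7.70 and 7.26 in those of involution (1.25 ± 0.21, adjusted p = 0.0173 in limma). It passed neither with the lower filter (adjusted p = 0.0771) nor without nulliparous replicate 1 or 2, nor without involution replicate 2.

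Of 15 genes of peptide trimming and loading help, 2 rose, 0 fell and 13 did not pass, with a median difference of -0.03. The 2 act on class I peptides: Erap1, the aminopeptidase that trims them in the endoplasmic reticulum, rose by 0.52 ± 0.09 (adjusted p = 0.016 in limma), and Tapbpl, a tapasin relative that edits them, by 0.58 ± 0.14 (adjusted p = 0.0452). With the lower filter 0 of the 15 passed. In the main test 5 of them had an unadjusted p under 0.05, a share near that of all tested genes. Scaling to equal totals, which moved the median of all genes to -0.16, left 0 called higher and 2 called lower. Without nulliparous replicate 1 or 2 none rose, and without any 1 involution library 1 did. General chaperones of the loading complex did not pass: Calr differed by 0.26 ± 0.13, Canx by 0.20 ± 0.11 and Pdia3 by 0.24 ± 0.12. Thop1, a cytosolic peptidase gene that destroys peptides, had the largest difference of the other 13 (-0.49 ± 0.15, limma's adjusted p = 0.0851).

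The rest of the proteasome gave no calls. None of 14 constitutive 20S subunits, 18 regulator subunits of the 19S cap or 9 activators and assembly factors passed in limma, with or without the lower filter, and 1 of these 41 genes had an unadjusted p under 0.05. Their median differences were 0.04, 0.03 and 0.08, and with libraries scaled to equal totals they were -0.10, -0.11 and -0.06, where all tested genes had a median of -0.16. The largest were Psma5 with 0.19 ± 0.14, Psmc5 with -0.23 ± 0.13 and Psmg3 with -0.27 ± 0.18. Psme1 and Psme2, the subunits of the activator that interferon induces, had 0.16 ± 0.12 and 0.17 ± 0.10.

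Of 21 transcription factors of interferon and MHC control, 3 rose, 1 fell and 17 did not pass. Stat3, which transmits signals of the IL-6 family, rose by 0.55 ± 0.08 (adjusted p = 0.0101 in limma). Stat2, a subunit of the factor that binds interferon elements, rose by 0.46 ± 0.09 (adjusted p = 0.027). Irf8, an interferon regulatory factor of myeloid cells, rose by 1.42 ± 0.26 (adjusted p = 0.0233), and Creb1, which binds X2 sites, fell by 0.40 ± 0.09 (adjusted p = 0.0347). With the lower filter Stat3 alone was called (adjusted p = 0.0395 in limma). Without nulliparous replicate 1 none of the 4 was called, and without any 1 of the other libraries 1 or 2 factors rose and 0 fell. Irf8 was at log2 values of 7.67 and 7.28 against 9.21, 9.04 and 8.43, and the summed level of macrophage markers was 15600, 10100 and 6410 units in the same involution libraries. Its part in the value of Irf8 was not tested. Irf1, a direct activator of class I promoters, was at log2 values of 12.60 and 13.43 in the nulliparous libraries and 13.52, 13.73 and 13.82 in those of involution, which differed by 0.68 ± 0.24 without passing (adjusted p = 0.129 in limma). Rfx5, Rfxap and Rfxank, the partners of NLRC5 on X boxes, had differences of -0.21, -0.11 and -0.20 without passing.

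Of 18 interferon, receptor and feedback genes, 14 were tested, 3 rose and 0 fell. Socs3, the feedback inhibitor of IL-6 family signals, rose by 1.48 ± 0.23 (adjusted p = 0.0136 in limma), and Socs1, that of interferon signals, by 0.95 ± 0.23 (0.0493). Ifnar2, a chain of the type I interferon receptor, rose by 0.66 ± 0.10 (adjusted p = 0.0116). With the lower filter Ifnar2 alone was called (adjusted p = 0.0499 in limma). Without nulliparous replicate 1 or replicate 2 none of the 3 was called. Ifnlr1, the lambda receptor gene, had a difference of -0.64 ± 0.64. RNA of the interferon genes on this list was at or near the floor of the table, 3.57, the value of rows that do not vary. Ifng was at log2 values of 4.22 and 4.10 in the nulliparous libraries and 4.15, 3.95 and 4.34 in those of involution, and Ifnb1 between 3.52 and 4.88. Ifnl2 and Ifnl3 were at the floor in every library. Interferon alpha genes were not on the list.

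**Figure D4:**
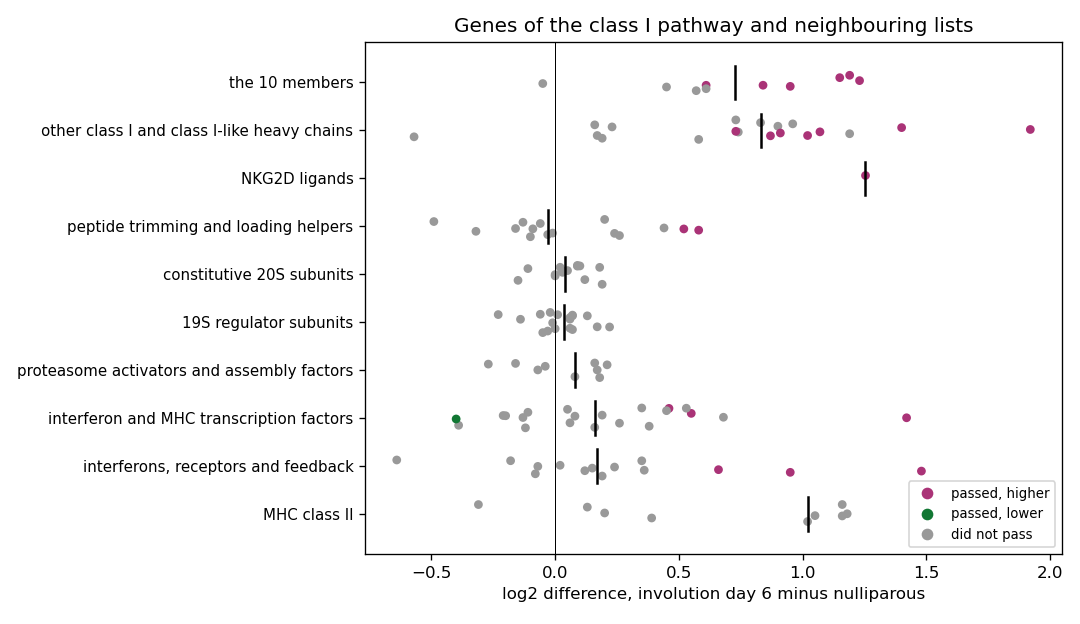
Log2 difference, involution day 6 minus nulliparous, of each tested gene in 10 lists, purple for genes that passed as higher, green for lower and grey for neither, with a black bar at the median. The members and the other class I chains have medians of 0.73 and 0.83, and the 3 proteasome lists medians of 0.03 to 0.08.

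RNA of class II genes, which is typical of macrophages, dendritic cells and B cells, differed from class I RNA mainly in involution replicate 3. None of 9 tested class II genes passed in limma, although their median difference was 1.02, and 1 of them had an unadjusted p under 0.05. That median was 0.28 without nulliparous replicate 2 and 0.55 without involution replicate 1. H2-Aa was at log2 values of 10.29 and 8.87 in the nulliparous libraries and 11.70, 10.66 and 9.92 in those of involution (1.18 ± 0.59, adjusted p = 0.249 in limma). Within the involution group it was lowest in replicate 3, below nulliparous replicate 1, while B2m, H2-K1 and H2-D1 reached 15.78, 15.17 and 15.62 in that replicate. In other libraries the patterns were alike in part. Each of the 10 members was, like H2-Aa, higher in nulliparous replicate 1 than in replicate 2. As in H2-Aa, values of B2m, H2-K1, H2-D1, Tap2, Psmb9 and Nlrc5 also fell from involution replicate 1 to 2. Tapbp did so slightly, from 13.89 to 13.87, while Tap1, Psmb8 and Psmb10 did not. Ciita, the class II transactivator gene, had overlapping groups and its lowest value, 5.35, in involution replicate 3 (0.20 ± 0.50, adjusted p = 0.823).

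Macrophage marker RNA was also highest in involution replicate 1 and, within that group, lowest in replicate 3. All 14 macrophage markers were positive and 2 passed, Adgre1 and Lyz2. Their summed level above the offset was 5600 and 3630 units in nulliparous libraries and 15600, 10100 and 6410 in involution replicates 1, 2 and 3, at most 0.0362% of a library. Lyz2 was the most abundant, at log2 values of 10.05 and 8.98 in the nulliparous libraries and 12.37, 11.65 and 10.90 in those of involution. In involution replicate 3 each of the 10 members except B2m had its highest value. None of the 14 was at the floor of the table in every library. Without involution replicate 1, B2m, H2-K1, H2-D1, Tapbp and Nlrc5 were called and Tap1 was not (adjusted p = 0.0566 in limma). The part of macrophage RNA in the class I values was not tested.

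**Figure D5:**
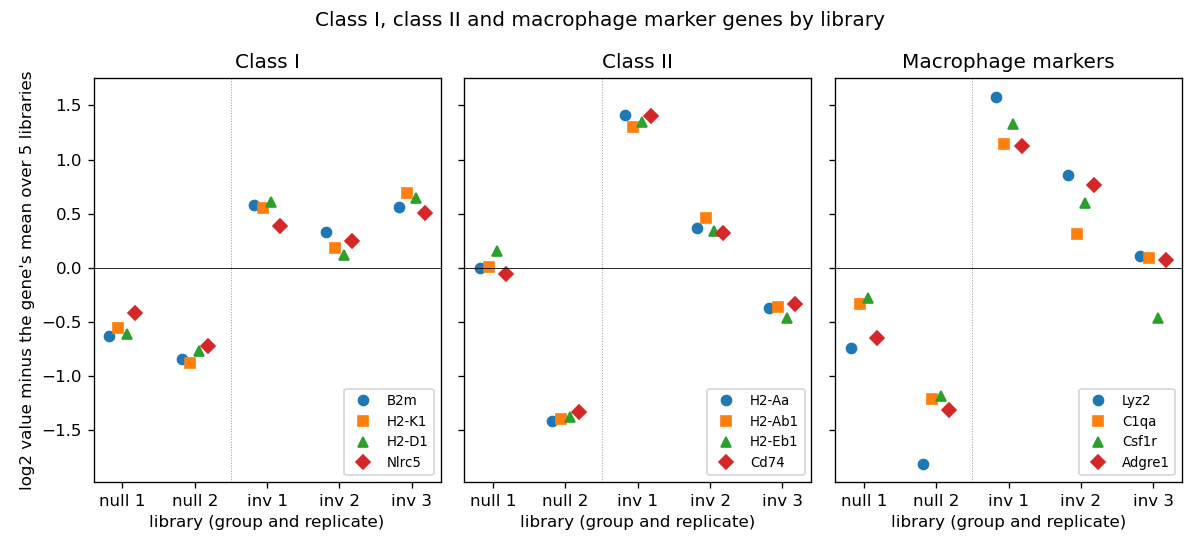
Log2 value minus the gene's mean over 5 libraries (y axis) for 4 class I genes, 4 class II genes and 4 macrophage markers, by library (null, nulliparous, and inv, involution day 6, with the replicate number). Class I genes stand high in each involution library, while class II genes are high in involution replicate 1 and below their own mean in replicate 3.

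T and NK cell markers summed to 305 and 319 units in nulliparous and 542 to 985 in involution libraries, mostly Cd3e in the latter. Of 9 tested, 0 passed and 2 had an unadjusted p under 0.05, and the median difference was 0.39, with 6 positive. Cd3e, the most abundant, was at log2 values of 7.40 and 7.44 against 8.23, 9.68 and 9.05. Cd3g and Trac were lower in every involution library, with differences of -0.57 and -0.6. Dendritic cell markers summed to 2160 and 2080 against 1300 to 1950 units, mostly Zbtb46. Of these 8, Itgax rose and Zbtb46, the most abundant, fell. The median difference of the 8 was 0.3, with 5 positive. Neutrophil markers summed to 92.4 and 61.0 against 208 to 426 units, with Mmp8 the most abundant and called higher. B and plasma cell markers summed to 14000 and 10200 against 11200 to 15100 units, mostly Sdc1, up to 0.0372% of a library. Jchain, the joining chain gene of secreted antibody, was at log2 values of 6.58 and 5.94 against 12.20, 11.09 and 10.11, a difference of 4.88 ± 0.57 (adjusted p = 0.00637 in limma), and was highest in involution replicate 1. With the lower filter Zbtb46 was called, Itgax, Mmp8, Jchain, Adgre1, Lyz2 and the adipocyte marker Cfd were not, and the T cell marker Cd3d, not tested with the main filter, was called lower (adjusted p = 0.0427 in limma). Epithelial markers, with the casein gene Csn2 the most abundant, summed to 38600 and 11900 against 10200 to 61100 units. Of these 15, 0 passed and 3 had an unadjusted p under 0.05, and the median difference was -1.28, with 3 positive. Endothelial markers, led by Tek, summed to 14400 and 10500 against 8480 to 13300 units, and pericyte markers, led by Abcc9, to 9690 and 10600 against 4630 to 7440 units, with 0 calls in either and 0 and 3 genes at an unadjusted p under 0.05. Adipocyte markers summed to 137 and 97.6 against 15.5 to 39.1 units, and Cfd, the only one tested, fell. The part of these cells in the class I values was not tested either. Fibroblast markers, led by Col3a1, summed to 4180000 and 4030000 against 4420000 to 5730000 units, up to 13.5% of a library, and 0 of 8 passed, with 2 at an unadjusted p under 0.05. For the most abundant of them the test could hardly call a change, because limma's prior SD far exceeded their own. It was 1.18 against a residual SD of 0.216 for Col3a1, and 0.828 against 0.211 for Col1a1. Col1a1 differed by 0.59 ± 0.56, with every involution library above every nulliparous library.

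The 5 other genes whose profile over the 5 libraries came nearest to the mean profile of the members were Arpc3, AW112010, Srgn, Camk2n2 and Trip13, among 14321 genes. Their root-mean-square distance was 0.064 to 0.078 on the log2 scale. Arpc3, a subunit gene of the actin-branching complex, was at log2 values of 11.53 and 11.32 in the nulliparous libraries and 12.11, 12.07 and 12.21 in those of involution. Srgn, the proteoglycan gene of secretory granules, was at 9.13 and 8.92 against 9.93, 9.66 and 9.89.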

How the data were processed

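Base calling used bcl2fastq and alignment used STAR 2.4.2a with GRCm38, per the submitters' processing notes. The authors deposited log2 values of scaled counts, 1 column per library. How reads were counted, scaled and offset is not given in the sources used here. Rows at one shared lowest level in all libraries (17395) sat at about 3.57, an offset of about 11.85, so log2 differences understate changes of weakly expressed genes. Unlogged totals above the offset were 37564357 to 43002044 per library. Values down to 3.44 lie below that level, so counts cannot be had by taking off the offset, and no counting error is given. The p-values measure the spread between libraries, combined in limma with a prior SD.

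The groups were compared on these log2 values by limma 3.58.1 (R 4.3.3, trended prior, two-sided, Benjamini-Hochberg). Genes entered with a mean of at least 10 units above the offset. Alternatives were other filters, a prior without trend, an offset of 1, 3 other scalings, each library left out and a replicate block. In data simulated for this comparison (15912 genes), 35% of 100 genes changed 2-fold and 77% of 100 genes changed 4-fold were recovered, with 5 unchanged genes among 117 called. Members, lists, filter and rules were chosen with earlier results of these data known. Named are the members, the constitutive partners, up to 4 called genes per list by smallest p, its largest difference not called, the most abundant marker of each cell type and the 5 nearest profiles. Other named genes were chosen after their values were seen. Gene positions follow GENCODE M21 on GRCm38, counted from 1. The result of 1 gene of these lists is not reported here.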

Additional observations from a re-analysis of the deposited data

How the results depend on the processing

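B2m and Tapbp were higher and passed in all 14 settings. H2-K1 and H2-D1 passed in 11, Nlrc5 in 12, Tap1 in 6, Psmb10 in 3, Psmb9 in 1 and Psmb8 and Tap2 in 0. The differences of Tap2 lay between -0.192 and 0.063 over the 14 settings. They changed sign without nulliparous replicate 1 (0.063) or involution replicate 2 (0.052), with a lowest value of -0.167 when 1 library was left out. Among all genes, 1058 were called higher and 742 lower, and among the pathway lists 16 and 1. With the lower filter, which tested more genes, the counts were 322 and 235, with 2 members, and 5 and 0 in the lists. Without a trend in the prior they were 686 and 482, with 0 lower in the lists. Scaling to equal totals gave 804 higher and 1731 lower, so 31.7% of calls were higher in place of 58.8%, and 4 list genes were lower. Leaving out 1 library gave 263 to 785 higher and 185 to 479 lower genes, 2 to 5 members higher, and 1 to 13 list genes higher and 0 lower. With the replicate block, which in effect compares replicates 1 and 2 only, 1817 genes were higher and 1449 lower, with 8 members higher, and 27 list genes were higher and 3 lower, 5 of the 27 being class II genes. Only replicate numbers 1 and 2 occur in both groups, and the deviations of same-numbered libraries correlated at 0.577 and 0.063 over 15912 genes, so the numbers were not taken as pairs. The causes were not tested. With 2 and 3 libraries, 35% of simulated 2-fold changes were recovered. The simulation had 117 genes called, against 1800 in the data, so its adjustment for multiple tests was stricter and that share need not hold here.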
